A study of Homo sapiens with 4 samples.

Results

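Desmosomes are spot junctions that rivet epithelial cells together and tie the junction to keratin filaments inside the cell. Their outer part is built of desmosomal cadherins, the desmogleins and desmocollins, which meet those of the neighboring cell. Inside the membrane the armadillo proteins plakoglobin and the plakophilins bind the cadherin tails, and plakins such as desmoplakin carry the link on to the filaments. In glandular tumors such as esophageal adenocarcinoma, desmoglein 2 and desmocollin 2 are the usual cadherin pair, whereas the other family members belong mainly to stratified squamous epithelium.

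The 10 genes described here were taken by name from the 63677 Ensembl genes listed in the count files. The rule uses no measured value, but the set was chosen with earlier results of these libraries known. They comprised 3 desmosomal cadherins (*DSG2*, *DSC2* and *DSC3*), 3 plakins (*DSP*, *PPL* and *EVPL*) and 4 armadillo proteins (*JUP*, *PKP2*, *PKP3* and *PKP4*). All 10 were matched to a row of the files by their Ensembl identifier. RNAseq libraries were made from 2 lines. FLO-1 parental is a human esophageal adenocarcinoma cell line, and FLO-1LM is a subline that the authors recovered from a liver metastasis after FLO-1 liver deposits had been carried from one immunodeficient NSG mouse to the next under the skin. Each line gave 2 libraries, both lines were untreated and grown in culture, and cells were taken at 80% confluency, 24 hours after fresh medium. The sources used here do not say whether FLO-1LM is a single clone, nor whether a line's libraries stem from separate cultures, so the p-values measure the spread between these libraries, which may be technical. The purpose of the comparison was to find what separates the metastatic subline from the line it came from.

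The libraries held 19060310 to 25920336 counts on genes. The 2 libraries of each line stood farther apart than sampling noise allows. The chi-square was 9.16 times its degrees of freedom for FLO-1LM and 4.37 times for parental cells. Pairs of 1 library from each line gave 10.6 to 13.4 times, the lowest not far above the value within FLO-1LM. All 4 libraries were kept as separate samples. No sequencing date or batch is given, so a batch that followed the line cannot be told apart from the line. The glandular label was checked against fixed markers. The keratins of simple epithelium *KRT8*, *KRT18* and *KRT19* were present in every library (294 to 9568 counts), but *EPCAM*, a surface marker of most glandular epithelia, had only 3 to 12 counts. The 8 squamous markers summed to 0.404 to 0.855 CPM (counts per 1000000, after TMM scaling of the library sizes) in FLO-1LM and to 0.209 to 2.13 CPM in parental cells. *DSG3* and *IVL* among them had 0 counts in all libraries.

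Promoter stretches of the 3 cadherin genes and of 1 plaque gene, *PKP4*, are shown because the 3 cadherin genes stood far below *PKP4* and the other 4 abundant plaque genes in level. RefSeq promoter windows were matched for 6 of the 10 members, and the 250 bases before the most upstream start of each were placed on GRCh37 by an exact match to the genome. Only the stretch before the first annotated exon base of the gene is shown. Capitals mark the E-box CACCTG on either strand (CAGGTG when read on the other strand), the core that SNAI and ZEB family repressors are known to bind. *DSG2* is shown from chr18:29077890-29078139 (plus strand), *DSC2* from chr18:28682486-28682634 (minus strand), *DSC3* from chr18:28622782-28622958 (minus strand) and *PKP4* from chr2:159313214-159313463 (plus strand), each 5′ to 3′ in the sense of its gene.
DSG2: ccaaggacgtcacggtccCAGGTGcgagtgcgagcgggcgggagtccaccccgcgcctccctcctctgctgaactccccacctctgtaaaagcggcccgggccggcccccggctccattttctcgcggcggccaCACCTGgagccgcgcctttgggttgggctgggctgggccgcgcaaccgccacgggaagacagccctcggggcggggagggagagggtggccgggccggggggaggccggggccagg
DSC2: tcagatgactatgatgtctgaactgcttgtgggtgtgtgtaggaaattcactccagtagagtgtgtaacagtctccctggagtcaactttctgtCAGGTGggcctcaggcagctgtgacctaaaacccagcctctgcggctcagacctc
DSC3: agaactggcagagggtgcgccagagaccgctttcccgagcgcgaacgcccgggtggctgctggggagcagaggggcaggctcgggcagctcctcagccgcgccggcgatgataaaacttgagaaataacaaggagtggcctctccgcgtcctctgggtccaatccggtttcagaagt
PKP4: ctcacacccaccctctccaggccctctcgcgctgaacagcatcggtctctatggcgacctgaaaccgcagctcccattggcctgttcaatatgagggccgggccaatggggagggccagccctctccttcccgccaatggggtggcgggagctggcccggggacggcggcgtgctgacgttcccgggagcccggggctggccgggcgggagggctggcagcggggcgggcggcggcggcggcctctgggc
The E-box occurred 2 times in the 250 bases of *DSG2*, 1 time in those of *DSC2* and 0 times in those of *DSC3* and *PKP4*. The windows of *DSP*, with 2 E-boxes, and *JUP*, with 0, are not shown, since 250 and 188 of their 250 bases lie in annotated exons of the same gene. Of all 35116 RefSeq windows, 17.5% held it. The windows of *DSG2* and *PKP4* were both rich in CpG, with 26 and 23 CpG pairs, against a median of 11 over all windows, and those of *DSC3* and *DSC2* held 18 and 12. The windows of *DSP* and *JUP*, largely exonic, held 33 and 17. A match is a description of the letters and not evidence that a factor binds there.

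Both lines had 5 of the 7 plaque genes at ordinary to high levels and almost no transcripts for the 3 desmosomal cadherins, while the plaque genes *PKP2* and *EVPL* were as scarce as the cadherins. Desmoglein 2 was the only desmosomal cadherin of the 3 with more than a handful of reads. *DSG2* (ENSG00000046604, chromosome 18 of GRCh37 from 29078140 to 29128971) had 37 and 65 counts in the FLO-1LM libraries and 34 and 36 in the parental libraries. The desmocollin gene *DSC2* (ENSG00000134755, chromosome 18 from 28638806 to 28682485) had 4 and 1 counts in FLO-1LM and 4 and 3 in parental cells. *DSC3* (ENSG00000134762, chromosome 18 from 28569331 to 28622781), a desmocollin of basal squamous cells, had 0 counts in all 4 libraries. At this depth a count of 0 allows up to 3 counts, or 0.116 to 0.157 CPM of the unscaled library total depending on the library, for counting error only. The 3 cadherins together took 1.81 and 2.55 CPM of the unscaled library totals in FLO-1LM and 1.75 and 2.05 in parental cells. The exact 95% binomial intervals, which cover counting error only, ran from 1.30 to 2.46, 1.97 to 3.24, 1.24 to 2.40 and 1.46 to 2.80 in the same order, so the cadherin shares of the 4 libraries overlapped.

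The desmosomal cadherin genes sit side by side on chromosome 18, over 559.6 kb from *DSC3* to *DSG2*, and this stretch holds 7 protein-coding genes, all of them desmocollins or desmogleins. Of the 7, *DSC3*, *DSC1*, *DSG1*, *DSG4* and *DSG3* had 0 counts in every library, *DSC2* had 1 to 4, and *DSG2*, at the end of the row, had 34 to 65. The antisense gene *DSG2-AS1*, which overlaps an exon of *DSG2*, also had 0 counts in all libraries. Within 500 kb of the cluster, 6 further genes could be tested between the lines. Their median log2 fold change was 0.03 (range −0.25 to 0.13). None of the 6 passed the threshold in edgeR, DESeq2 or limma voom, and 0 had an unadjusted p below 0.05 in edgeR.

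Desmoplakin, the obligate plakin that anchors keratin filaments, was the most abundant member. *DSP* (ENSG00000096696, chromosome 6 from 7541571 to 7586947) had 11378 and 12551 counts in FLO-1LM and 13193 and 9853 in parental cells. Scaled to library size this was 511 and 488 CPM in FLO-1LM and 598 and 514 CPM in parental cells. The lower parental library lay just above the higher FLO-1LM library. Divided by the length of its exons, the mean level of *DSP* was higher than in 92.4% of the 12536 protein-coding genes tested. *DSP-AS1*, on the other strand at the start of *DSP*, had 145 to 202 counts. The kit kept strand, but the strand setting of the counting is not given in the sources used here.

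To compare genes with one another, levels were expressed per kb of exon. In FLO-1LM the order of the mean level, in CPM per kb, was *DSP* (36.6), *JUP* (16.9), *PPL* (12.0), *PKP4* (7.67), *PKP3* (5.29), *DSG2* (0.2205), *PKP2* (0.068), *EVPL* (0.0091), *DSC2* (0.0087) and *DSC3* (0). In parental cells the order was the same, at 40.8, 20.4, 15.4, 7.60, 4.86, 0.180, 0.070, 0.040, 0.014 and 0. The only neighbors whose libraries overlapped were *EVPL* and *DSC2* in FLO-1LM. A gap separates the first 5 genes from the others. The 5 abundant plaque genes lay at percentiles 45.7 to 92.4 of tested protein-coding genes by level per kb, and *DSG2* and *PKP2* stood at percentiles 4.63 and 0.869. The median over those genes was 5.94 CPM per kb. Per kb of exon, the *DSP* level was 135 to 270.4 times the *DSG2* level within a library. In raw counts there were 308 and 193 *DSP* reads for each *DSG2* read in FLO-1LM and 388 and 274 in parental cells.

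**Figure D1:**
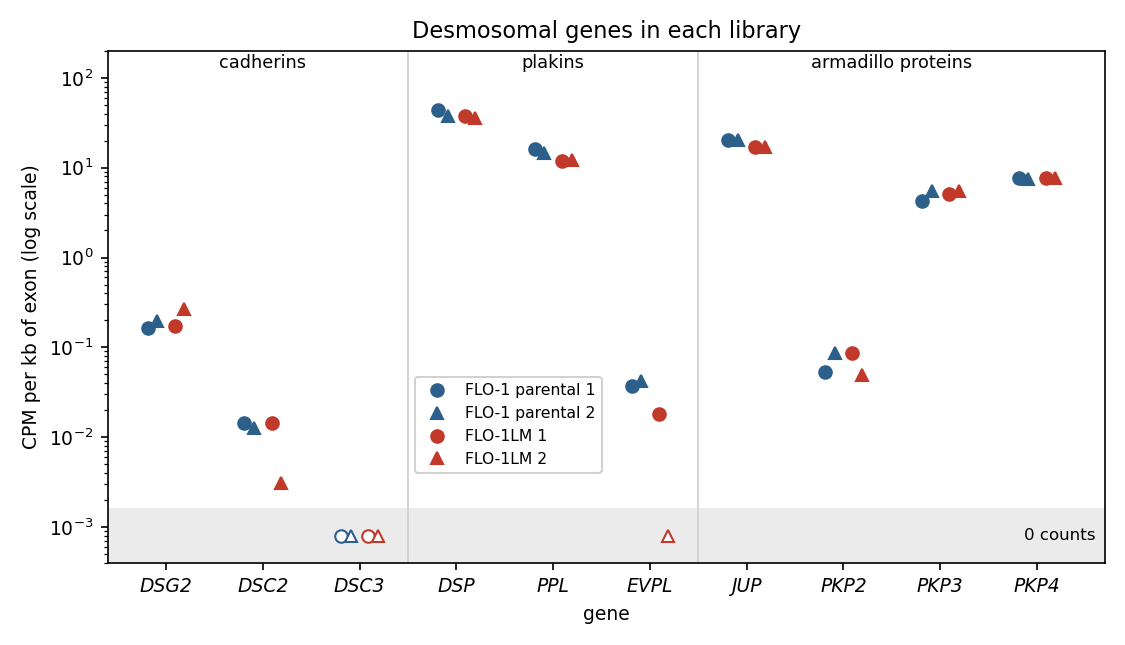
Level of each desmosomal gene in each library, in CPM per kb of exon on a log axis, with circles for replicate 1 and triangles for replicate 2 of parental (blue) and FLO-1LM (red) cells. Open symbols in the gray band are libraries with 0 counts. *DSP*, *PPL*, *JUP*, *PKP3* and *PKP4* lie between 4.29 and 43.9 CPM per kb, and *DSG2*, *DSC2*, *EVPL* and *PKP2* at or below 0.266.

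**Figure D2:**
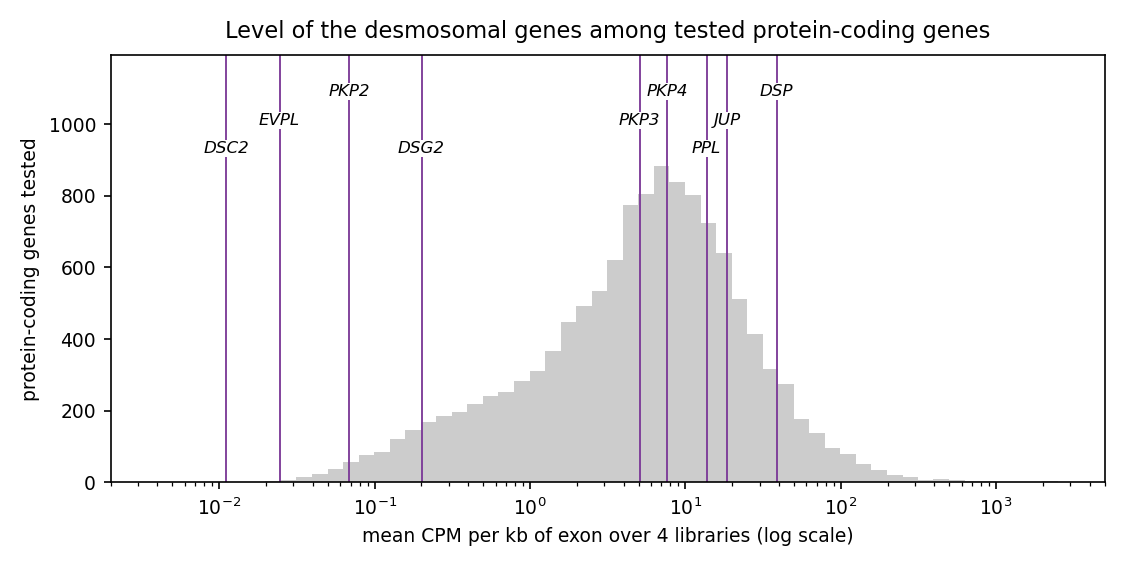
Distribution of the mean level per kb of exon over the 4 libraries, on a log axis, for 12536 tested protein-coding genes (gray bars), with a line at each desmosomal gene other than *DSC3*, which had no counts. *DSC2* and *EVPL* were not themselves tested and lie below the bulk of the distribution, *DSP* lies above 92.4% of it.

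Among the armadillo proteins, *PKP2*, the plakophilin of simple epithelia and heart muscle, was as scarce as the cadherins. *PKP2* (ENSG00000057294, chromosome 12 from 32943679 to 33049732) had 20 and 13 counts in FLO-1LM and 12 and 17 in parental cells. The lines overlapped, and the higher library of each reached about the same level, 0.898 and 0.887 CPM. *PKP3* (ENSG00000184363, chromosome 11 from 392614 to 404908), a plakophilin found in desmosomes of most epithelia, had 429 and 537 counts in FLO-1LM and 359 and 395 in parental cells. *PKP4* (ENSG00000144283, chromosome 2 from 159313464 to 159539391), a relative that is found at both desmosomes and adherens junctions, had 1631, 1881, 1622 and 1370 counts in the same order. After scaling, *PKP4* was level in all 4 libraries, at 73.2 and 73.1 CPM in FLO-1LM and 73.6 and 71.5 CPM in parental cells. The intervals for *DSG2* and *PKP2* below are wide because so few reads fell on them.

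Between the lines, the clearest difference was in periplakin, a plakin that links the plaque to intermediate filaments and also contributes to the cornified envelope of squamous cells. *PPL* (ENSG00000118898, chromosome 16 from 4932508 to 5010742) had 2032 and 2413 counts in FLO-1LM and 2732 and 2171 in parental cells. In CPM this was 91.2 and 93.7 in FLO-1LM and 124 and 113 in parental cells, so both FLO-1LM libraries lay below both parental libraries. *PPL* fell by 22.0% in FLO-1LM. This is −0.36 on the log2 scale with a standard error of 0.082, and edgeR's quasi-likelihood F-test gave an adjusted p of 0.024 over 17143 genes (Benjamini-Hochberg). The 95% interval puts the FLO-1LM level at 69.2% to 87.8% of the parental level. By p-value *PPL* ranked 252 of the 17143 genes. In bulk libraries, fewer cells of a kind and less RNA per cell cannot be told apart. The call did not hold without a parental library. Its adjusted p from edgeR was 0.64 without parental replicate 1 (log2 fold change −0.29) and 0.094 without parental replicate 2 (−0.42), whereas it passed without either FLO-1LM library. It also passed in all 8 settings that kept every library, DESeq2 and limma voom among them (adjusted p from 0.0029 to 0.025).

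Plakoglobin, the armadillo protein shared by desmosomes and adherens junctions, came next. *JUP* (ENSG00000173801, chromosome 17 from 39910856 to 39943183) had 1853 and 2150 counts in FLO-1LM and 2231 and 1926 in parental cells. In CPM the FLO-1LM libraries were at 83.2 and 83.5 and the parental libraries at 101 and 100.4, again without overlap. Its log2 fold change was −0.27 (standard error 0.080, 95% interval −0.44 to −0.11), and it missed the threshold with an adjusted p of 0.096 from edgeR. With limma voom and no TMM factors it passed (log2 fold change −0.31, adjusted p = 0.0498). For *DSP* the difference was −0.16 on the log2 scale (95% interval −0.32 to 0.0064), with an adjusted p of 0.43 in edgeR.

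The other tested members gave no call, and their intervals differ in what they leave possible. *PKP4* had a log2 fold change of 0.01 (95% interval −0.17 to 0.19), which turned to −0.02 when library totals alone were used for scaling. *PKP3* had 0.12 (95% interval −0.19 to 0.43). *DSG2* had 0.30 (95% interval −0.57 to 1.17) and *PKP2* −0.03 (95% interval −1.43 to 1.37). In percent of the parental level, the interval of *PKP4* ran from 89.1% to 114%, that of *DSG2* from 67.4% to 224% and that of *PKP2* from 37.1% to 259%. The signs of *DSG2*, *PKP2*, *PKP3* and *PKP4* each changed when 1 library was left out. *PKP4* moved to −0.0084 without parental replicate 2. *DSG2* moved to −0.04 without FLO-1LM replicate 2, the library with 65 counts, *PKP2* to 0.34 without FLO-1LM replicate 2 and to 0.36 without parental replicate 2, and *PKP3* to −0.04 without parental replicate 1.

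In all, 7 of the 10 members passed edgeR's filter on low counts, 1 of the 7 was called lower in FLO-1LM and 0 higher. Of all genes tested, 2.23% were called, 1.83% lower and 0.402% higher. Of the 12536 protein-coding genes among them, 149 were called lower and 58 higher. The 1 member in 7 is too few to set against that background. At an unadjusted p below 0.05 in edgeR there were 2 members, *PPL* and *JUP*, against 12.4% of all genes, and DESeq2 and limma voom with TMM factors each called 1 member in all. The CPM values of the lines did not overlap for 3 of the 7, *PPL*, *JUP* and *DSP*, all lower in FLO-1LM, against 42.6% of all genes in either direction, 21.7% lower and 20.9% higher. The median log2 fold change of the 7 was −0.03, against 0.0016 for all genes tested. Since each line has 2 libraries, an exact permutation test for a single gene cannot give a two-sided p below 0.333, so the single-gene p-values lean on the spread that edgeR shares across genes.

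**Figure D3:**
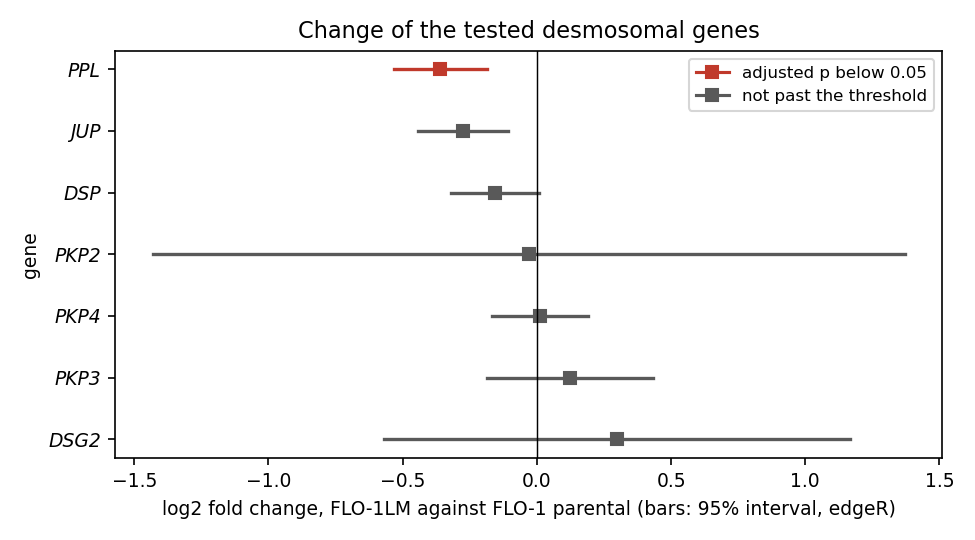
Log2 fold change of the 7 tested desmosomal genes, FLO-1LM against FLO-1 parental, with 95% intervals from edgeR as bars. The interval of *PPL* (red, adjusted p below 0.05) runs from −0.53 to −0.19, that of *JUP* also stays below 0, and those of *DSG2* and *PKP2* are the widest.

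The remaining 3 members, *DSC2*, *DSC3* and *EVPL*, were below the filter and were not tested. Envoplakin, the partner with which periplakin pairs in the cornified envelope, was nearly absent. *EVPL* (ENSG00000167880, chromosome 17 from 74000583 to 74023387) had 3 and 0 counts in FLO-1LM and 6 and 6 in parental cells. The ratio of its rate in FLO-1LM to that in parental cells was 0.215, with an exact 95% counting interval of 0.039 to 0.795 that holds no spread between libraries. For *DSC2* the ratio was 0.613 (0.153 to 2.24). The related gene *EVPLL* had 0 counts in all libraries, and *PPL* was thus present with almost no reads of its partner.

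Ratios of 2 genes within a library do not depend on how library sizes are scaled. For every 100 *PKP4* reads there were 125 and 128 *PPL* reads in FLO-1LM and 168 and 158 in parental cells. The ratio of *JUP* to *PKP4* behaved alike, with 114 and 114 per 100 in FLO-1LM and 138 and 141 in parental cells. Both ratios were lower in the FLO-1LM libraries without overlap, as were the ratios to *PKP4* of 23% of all genes, with 18.8% higher. Against *DSP* the separation was smaller. *PPL* reads per 100 *DSP* reads were 17.9 and 19.2 in FLO-1LM and 20.7 and 22.0 in parental cells, and the exact 95% counting intervals of the second FLO-1LM library (18.4 to 20.1) and the first parental library (19.9 to 21.6) overlapped. Of all genes, 8.54% were lower in FLO-1LM without overlap when set against *DSP*, and 36.4% higher. The ratios of *JUP* to *DSP*, 16.3 and 17.1 against 16.9 and 19.5 per 100, overlapped between the lines. The ratio of *PPL* to *JUP* (1.10 and 1.12 against 1.22 and 1.13) was lower in FLO-1LM by a margin far below its counting interval, where 6.56% of all genes were lower and 63.8% higher against *JUP* without overlap.

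**Figure D4:**
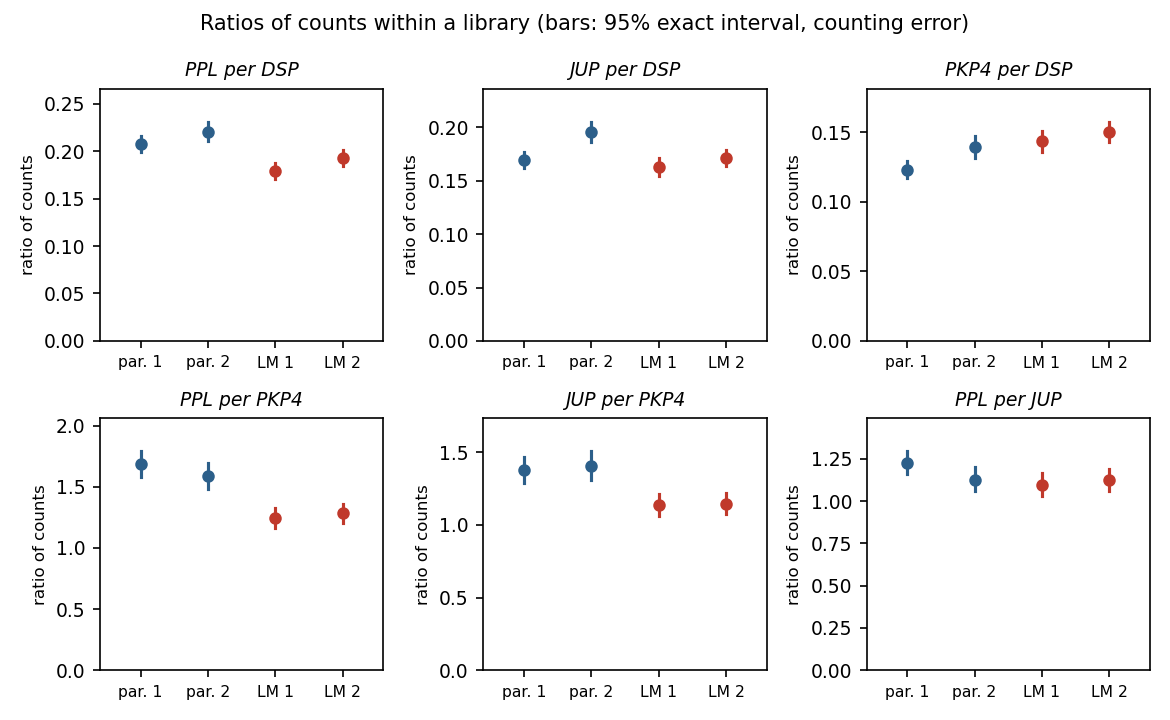
Ratio of the counts of 2 desmosomal genes within each library, for parental (blue) and FLO-1LM (red) cells, with exact 95% intervals for counting error as bars and all axes from 0. *PPL* and *JUP* per *PKP4* read are lower in both FLO-1LM libraries (1.25 and 1.28, 1.14 and 1.14) than in both parental libraries (1.68 and 1.58, 1.38 and 1.41), and the ratios among *PPL*, *JUP* and *DSP* lie close together.

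As a share of all counts, the 3 plakins took 592 and 577 CPM of the unscaled totals in FLO-1LM and 732 and 631 in parental cells, and the 4 armadillo genes 174 and 177 against 194 and 195. The plakin share is largely *DSP*, and the armadillo share largely *JUP* and *PKP4*. The FLO-1LM libraries were the lower in both, in sums that repeat the values of *DSP*, *PPL* and *JUP* given above. Taken singly, 21.7% of all genes tested were lower in FLO-1LM without overlap in TMM-scaled CPM.

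The genes whose pattern over the 4 libraries was closest to that of *PPL* were sought among 9439 protein-coding genes with a mean of at least 10 CPM, by the distance between log2 CPM values centered on each gene's mean. These were *ANTKMT* (distance 0.015), *BCAR3* (0.020) and *ST8SIA2* (0.023), with log2 fold changes of −0.35, −0.35 and −0.38. Fold changes near that of *PPL* follow from the way these genes were picked. None of the 3 passed the threshold (adjusted p from edgeR of 0.35, 0.12 and 0.39). Around *PPL* itself, 20 other genes within 500 kb were tested. Their median log2 fold change was 0.06 and 0 were called in edgeR, DESeq2 or limma voom, with 1 at an unadjusted p below 0.05 in edgeR. Its nearest overlapping neighbor *SEC14L5*, on the opposite strand and without shared exons, had 20 to 34 counts. Around *JUP*, 1 of 25 tested genes was called in edgeR, beside 2.23% of all genes, and 2 each in DESeq2 and limma voom. The edgeR call was the keratin gene *KRT19*, which is counted again among the filament genes below. At an unadjusted p below 0.05 in edgeR there were 8 of the 25, against 12.4% of all genes. In the windows of *DSP*, *PKP3* and *EVPL* there were 3 of 14, 5 of 48 and 3 of 31, and in those of *PKP2* and *PKP4* 0. Among these windows edgeR called 1 gene, *ZACN* near *EVPL*.

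Other genes of the junction were read from 8 lists with 70 genes, of which 42 could be tested, 7 were called lower in FLO-1LM and 1 higher. Over all genes tested, 1.83% were called lower and 0.402% higher, and of the 12536 protein-coding genes 149 lower and 58 higher. These lists were drawn up with earlier results of the same libraries known, so that the keratin and cadherin calls are no independent support. The median log2 fold change was −0.05 in the further desmosome components, −0.0016 in the other plakins, 0.04 in the armadillo relatives and −0.11 in the adherens junction partners. It was −0.70 in the filament genes, −0.09 in the cornified envelope partners, −0.0075 in the turnover regulators and 0.14 in the transcription factors, beside 0.0016 over all genes tested. Of the 9 further desmosome components, 3 could be tested and 0 were called (edgeR, DESeq2 and limma voom alike, with 0 at an unadjusted p below 0.05 in edgeR). *PERP*, a membrane protein of desmosomes, had 117.7 ± 9.7 CPM in FLO-1LM and 125.6 ± 7.5 in parental cells (SD, n = 2 each). *PNN* (log2 fold change 0.12) and *KAZN*, which encodes the periplakin-binding protein kazrin (−0.05), were likewise measured in both lines. *PKP1*, the plakophilin of squamous cells, had 2 counts in 1 library and 0 in the others.

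Of the 5 genes listed as other plakins and the envoplakin paralog, 3 were tested. The rows matched to *EPPK1* and *EVPLL* had 0 counts in every library. The 3 tested gave no call in edgeR, DESeq2 or limma voom, with 0 at an unadjusted p below 0.05 in edgeR. Per kb of exon, *PLEC* stood at percentile 94.9 of tested protein-coding genes, *MACF1* at 47.6 and *DST* at 43.4. Plectin (*PLEC*), a cytolinker of hemidesmosomes and focal contacts, had 886 ± 98 CPM in FLO-1LM and 846 ± 29 in parental cells (SD, n = 2 each). *MACF1* and *DST* had log2 fold changes of −0.0056 and −0.0016. *PPL* was thus the called plakin among 5 plakin genes with tests, and whether its change differs from theirs was not tested. Of the armadillo relatives, 3 of 4 were tested and 0 were called by the same tools, with 1 at an unadjusted p below 0.05 in edgeR. β-catenin (*CTNNB1*), the relative of plakoglobin at adherens junctions, had a log2 fold change of 0.04 (95% interval −0.11 to 0.18), and p120 catenin (*CTNND1*) −0.16 (adjusted p = 0.37 from edgeR). For every 100 *CTNNB1* reads there were 22.2 and 21.4 *JUP* reads in FLO-1LM and 27.0 and 27.0 in parental cells. Since *CTNNB1* was nearly level between the lines, this ratio largely repeats the *JUP* difference, which missed the threshold. The share of all genes that separate against *CTNNB1* was not counted.

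Both adherens junction cadherins that could be tested fell. The listed *CDH2*, which encodes N-cadherin, had 0 counts in all 4 libraries. *CDH1*, which encodes E-cadherin, fell by 2.21 on the log2 scale (adjusted p = 1.12e-09 from edgeR). *CDH3*, which encodes P-cadherin, fell by 1.26 (adjusted p = 0.0048 from edgeR). *CDH3* missed the threshold without parental replicate 1 (adjusted p = 0.059 from edgeR). *CDH1* nonetheless stayed above *DSG2* in every library, with 9.86 and 7.88 *CDH1* reads per *DSG2* read in FLO-1LM and 55.7 and 43.97 in parental cells. The other partners tested, *VCL*, *CTNNA1*, *AFDN* and *NECTIN2*, were not called, with log2 fold changes from −0.24 to 0.07. The lowest was that of *AFDN* (95% interval −0.40 to −0.08, adjusted p = 0.145 from edgeR), lower in FLO-1LM without overlap, as were 21.7% of all genes. Of the 6 partners tested, 2 were called lower and 0 higher in edgeR, beside 1.83% and 0.402% of all genes. At an unadjusted p below 0.05 in edgeR there were 3 of the 6, against 12.4% of all genes.

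Of the 12 filament genes, 7 were tested, 3 were called lower and 0 higher in edgeR, beside 1.83% and 0.402% of all genes. DESeq2 and limma voom with TMM factors called 3 each. At an unadjusted p below 0.05 in edgeR there were 4 of the 7, against 12.4% of all genes. Those that fell were 3 of the 4 simple epithelial keratins tested, the filaments to which desmoplakin ties the plaque in glandular cells, *KRT8* by 0.70, *KRT18* by 0.66 and *KRT19* by 1.31 on the log2 scale (adjusted p from edgeR of 1.29e-05, 2.24e-05 and 1.02e-05). Both *KRT8* and *KRT18* have many near-identical pseudogenes that may share their reads, which makes the size of either change uncertain. The other, *KRT7*, had 6.37 and 6.06 CPM in FLO-1LM and 3.08 and 4.90 CPM in parental cells, higher in FLO-1LM without overlap, with a log2 fold change of 0.64 (unadjusted p = 0.025, adjusted p = 0.30 from edgeR). In raw counts there were 55.5 and 53.9 *KRT8* reads per 100 *DSP* reads in FLO-1LM and 72.5 and 88.1 in parental cells. Vimentin (*VIM*), the filament of mesenchymal cells, had 1669 ± 131 CPM in FLO-1LM and 1581 ± 24 in parental cells (SD, n = 2 each), with a log2 fold change of 0.08 (95% interval −0.07 to 0.22). The markers of columnar epithelium, 4 of whose 5 tested genes were called lower and the other of which is *KRT7*, summed to 488 to 502 CPM in FLO-1LM and 848 to 863 CPM in parental cells, and their part in the change of *PPL* was not tested.

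Of 12 partners of periplakin and envoplakin in the cornified envelope, 4 could be tested and 4 had 0 counts in every library. *TGM2*, a tissue transglutaminase, had 45.1 ± 0.7 CPM in FLO-1LM and 58.0 ± 0.9 in parental cells (SD, n = 2 each). It fell by 0.36 on the log2 scale (adjusted p = 0.048 from edgeR), but was not called by DESeq2 (0.076), by limma voom (0.0503), or by edgeR without parental replicate 1 (0.49) or 2 (0.54). *TGM1*, the transglutaminase that seals the envelope in squamous cells, had 50 and 9 counts in FLO-1LM and 24 and 33 in parental cells. *S100A11* had a log2 fold change of −0.04. The 9 regulators of desmosome turnover, among them the sheddase *ADAM10*, the calcium pump *ATP2A2* and *ATP2C1*, were all tested, and 0 were called in edgeR, DESeq2 or limma voom, with 0 at an unadjusted p below 0.05 in edgeR. Their log2 fold changes ran from −0.10 to 0.10.

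Among 12 transcription factors tied to epithelial junction genes, 7 were tested. *KLF4* fell (log2 fold change −0.54, adjusted p = 0.0085 from edgeR) and *ZEB2*, a repressor that binds E-boxes, rose (0.47, adjusted p = 0.046 from edgeR), but *ZEB2* passed in only 3 of the 8 settings that kept all libraries. Without parental replicate 1 or 2 the adjusted p from edgeR was 0.19 or 0.061 for *KLF4* and 0.35 or 0.57 for *ZEB2*. Its relative *ZEB1*, at 72.3 ± 5.9 CPM in FLO-1LM and 65.7 ± 1.2 in parental cells (SD, n = 2 each), had a log2 fold change of 0.14 (adjusted p = 0.60 from edgeR). *SNAI1* had 50 to 79 counts and a log2 fold change of 0.06 (adjusted p = 0.97 from edgeR). *SNAI2* had 0 and 9 counts in FLO-1LM and 0 in both parental libraries, and *TWIST1* had 0 in every library. *KLF5* and *GRHL1* had log2 fold changes of 0.25 and −0.02. *GRHL2* and *OVOL2*, factors known to maintain the epithelial state, had 0 counts in all 4 libraries.

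**Figure D5:**
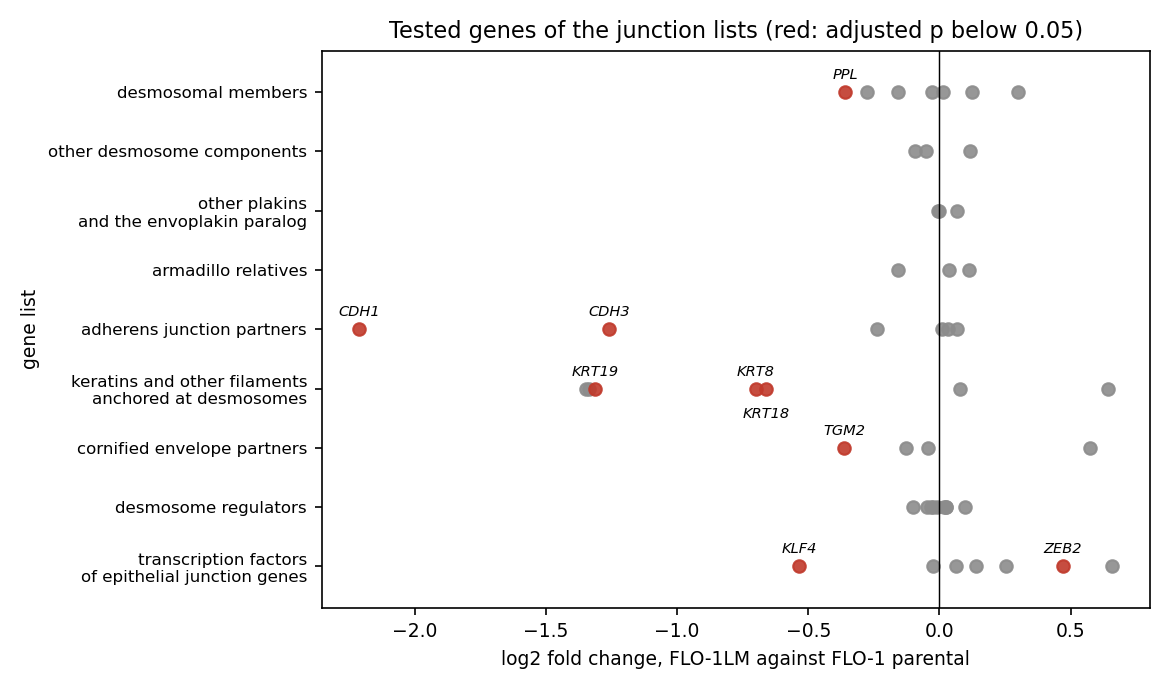
Log2 fold change of every tested gene in the desmosomal set and the 8 other junction lists, FLO-1LM against FLO-1 parental, with genes at an adjusted p below 0.05 in red and named. *PPL* (−0.36) is the call in the desmosomal set, beside *CDH1* (−2.21), *CDH3* (−1.26) and *KRT19* (−1.31).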

How the data were processed

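RNA from 2 FLO-1LM and 2 FLO-1 parental samples was sequenced with a directional kit on an Illumina instrument. Per the labels and methods, the authors used bcl2fastq 2.17, trimmed adapters with Trimmomatic 0.30, mapped reads to GRCh37 with an unnamed short read aligner and deposited raw counts per Ensembl gene. How reads were counted, and whether by strand, is not given in the sources used here. Groups came from the cell line label, and replicate numbers only name libraries.

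Genes with low counts were removed with filterByExpr (minimum count 10 in 2 libraries, minimum total 15), which left 17143 of 63677. The minimum count is applied as a CPM cutoff set at the median library size, not as a raw count. Lines were compared with edgeR 4.0.16 (R 4.3.3, TMM factors, glmQLFit, glmQLFTest), with Benjamini-Hochberg adjustment over all 17143 genes and a threshold of 0.05. Standard errors were derived from the F statistic, and 95% intervals use the fit's degrees of freedom. Total counts per library ran from 19060310 to 25920336, and edgeR's common biological coefficient of variation was 0.0899. Positions and exon lengths come from GENCODE 44 mapped to GRCh37, a later annotation than the authors'. Exact binomial intervals came from scipy 1.17.1 in Python 3.11.15.

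The study's own tool, limma voom (limma 3.58.1), was run as an alternative, as were DESeq2 1.42.0, edgeR scaled by RLE factors or by library totals alone, limma voom without TMM factors, no low-count filter, at least 10 counts in every library, no mitochondrial genes and each library left out. The scripts were tested on simulated data. *PECAM1*, a marker of endothelial cells, was not matched by name in the reference. The other 5 immune and endothelial markers summed to at most 0.932 CPM in any library, with *PTPRC* at 0 counts. The 6 fibroblast markers summed to 10.0 to 13.1 CPM, nearly all *COL1A1*, with *COL3A1* and *DCN* at 0. The members and lists were chosen with earlier results of these data known. Genes named beyond the members were, in each list, those past the threshold and up to 3 more with the highest CPM, genes overlapping a member, and the 3 genes closest in pattern to each called member. Genes outside this rule that are named (such as *PKP1*, *EVPLL*, *TGM1* and *GRHL2*) were chosen after their values were seen.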

Additional observations from a re-analysis of the deposited data

How the results depend on the processing

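The *PPL* call held in all 8 settings that kept every library and was lost without parental replicate 1 or 2, with log2 fold changes from −0.42 to −0.29 over the 4 fits that left out 1 library. Each such fit takes its spread from a single whole pair of libraries, and the lone library is assumed to vary alike. *JUP* passed only in limma voom without TMM factors (−0.31), where 2 members were called, and its range with 1 library left out was −0.28 to −0.27. With 1 library left out, 0 to 1 members were called, and the ranges were −0.037 to 0.56 for *DSG2*, −0.49 to 0.36 for *PKP2*, −0.038 to 0.30 for *PKP3*, −0.0084 to 0.034 for *PKP4* and −0.26 to −0.04 for *DSP*. *PKP4* moved to −0.02 with library totals only (−0.019) and with limma voom without TMM factors (−0.019), and none of these sign changes involved a call. The cause of these shifts was not tested.

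Over all genes, 382 were called (313 lower and 69 higher), against 577 with no low-count filter (147 higher) and 269 with at least 10 counts in every library (203 lower), filters that change which genes are tested. With 1 library left out the count ran from 116 to 1052 (96 to 696 lower, 20 to 356 higher). In the related lists the calls with 1 library left out ranged from 4 to 7 lower and 0 to 1 higher, and the single higher call, *ZEB2*, became 0 with library totals only, DESeq2, limma voom with or without TMM factors and the stricter count filter. The alternative scalings moved the median of all genes by at most 0.033 on the log2 scale. With the longest annotated transcript as length, levels per kb rose (for *DSP* in parental cells from 40.8 to 57.4) and the order of the members stayed the same in both lines. Depth limits what can be said of *DSG2*, *DSC2*, *DSC3*, *PKP2* and *EVPL*. No paired analysis was possible because the labels give no number or origin that links a FLO-1LM library to a parental one.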
